A study of Mus musculus with 24 samples.

Results

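The genes described here mark the cells that build the wall of brain blood vessels and the connective tissue around it. There were 34: 19 of endothelial cells, 11 of mural cells (pericytes and vascular smooth muscle) and 4 of fibroblasts. They were taken by name, as known markers of these cells, and all 34 were among the 24421 gene names of the tables. The low-value filter of the test (a normalised value of 20 or more in 3 or more of the 24 libraries) was passed by 32 of them, that is by 19 endothelial, 9 mural and 4 fibroblast genes. Tagln and Higd1b did not pass it and are given as levels.

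The libraries came from cells sorted by fluorescence from C57BL6 mice aged 20 weeks, with 3 libraries for each of 4 regions (olfactory bulb, hippocampus, cortex and brainstem) and 2 genotypes. All mice carried the floxed Nfia gene (NFIAfl/fl) and Aldh1l1-GFP, a reporter of the astrocyte gene Aldh1l1 on which the sort was made, and the mice labelled knockout also carried Aldh1l1-CreER, an inducible recombinase under the control of the same gene. Recombination was thus directed at cells with Aldh1l1 activity and not at vessel cells. The labels give neither the dose and time of the inducer nor which libraries share an animal, so that the spread between the 3 libraries of a group may be partly technical. The study compared the genotypes in each region and the control regions with each other.

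As background, brain endothelial cells form the blood-brain barrier, with sealed junctions, few transport vesicles, and transporters that carry glucose, lipids and drugs. Pericytes lie on the capillaries within the same basement membrane, smooth muscle cells surround arterioles, and fibroblasts lie in the adventitia of larger vessels, the meninges and the stroma of the choroid plexus. The end-feet of astrocytes cover this wall from the brain side, so that pieces of vessel are commonly carried along when astrocytes are dissociated.

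Recovered reads per library ranged from 1090777 (brainstem, knockout-labelled 3) to 24297573 (hippocampus, knockout-labelled 1), and the ribosomal RNA gene Rn45s took 13.5% to 25.6% of reads in cortex and brainstem and 0.966% to 3.33% in the other regions, apart from 20.8% in olfactory bulb, knockout-labelled 3. Levels are given as normalised reads, which are recovered reads divided by 1 size factor per library, all 24 on a common scale. On this scale 1 read was worth 0.209 to 5.72. The 12 astrocyte marker genes summed to between 113803 (brainstem, control 1) and 661341 normalised reads, and the 34 vessel genes to between 2512.7 and 14324.0, or 0.0405% to 0.230% of a library's reads. The astrocyte sum was thus far above the vessel sum in every library. Nfia reads, which check the genotype label, were higher and not lower in the libraries labelled knockout, at 7457 to 13260 against 3294 to 7428 in the controls, with no overlap (log2 fold change 0.72 in cortex to 1.10 in brainstem). The limma adjusted p was under 0.05 in hippocampus (0.00354) and brainstem (0.00243), but not in olfactory bulb (0.0728) or cortex (0.0825). The counts cover the whole gene, including reads from outside a deleted part, and the cause of the higher level was not tested. Directions below follow the labels, and the knockout-labelled libraries are called so for this reason. In bulk libraries, fewer cells of a type and less RNA per cell cannot be told apart.

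The 19 endothelial genes had reads in every library, and their level differed widely between libraries of the same group. Among them, Slc2a1, the glucose transporter of the barrier, had the highest mean over the 24 libraries at 1205.4 normalised reads, followed by Flt1, a receptor for vascular endothelial growth factor, at 556.5, and Slco1a4, an organic anion transporter, at 545.7. Per kilobase of exon the order changed: Slc2a1 stood at 343.8, ahead of the lipid transporter Mfsd2a at 134.4, Ly6a at 131.2 and Itm2a at 123, while Flt1 stood at 41.2. The lowest per kilobase was Vwf, the clotting factor stored in endothelial granules, at 3.86. Ly6c1, Ly6a, Abcb1a and Slco1a4 have close paralogs, among which the counting could have split reads.

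In hippocampal controls the sum of the 19 endothelial genes was 6916.9, 3777.3 and 1863.0 normalised reads in libraries 1, 2 and 3. It was 6339.6, 3264.2 and 2541.2 in the knockout-labelled hippocampal libraries. The knockout-labelled libraries thus lay within the control range. The highest library was 3.71 times the lowest among controls and 2.49 times among knockout-labelled libraries. This sum includes Slc2a1 and Mfsd2a, which varied less than the other 17 genes. For the 17 genes alone the ratios were 5.65 among hippocampal controls and 3.36 among knockout-labelled hippocampal libraries. The ratio was also larger without Slc2a1 and Mfsd2a in each group of the other regions. For all 19 genes, the olfactory bulb controls had 3939.9, 2774.8 and 1419.3, and the knockout-labelled libraries 2449.8, 1925.4 and 1643.5. Cortical controls had 3739.0, 1925.2 and 4536.4, and knockout-labelled libraries 2908.9, 6643.8 and 7874.4. Here 2 of 3 knockout-labelled libraries lay above every control and the remaining library below the control median. In brainstem the controls had 4634.9, 5131.8 and 6223.9, the narrowest range of any control group, against 4163.1, 5049.3 and 11024.6 in knockout-labelled libraries. The highest sum of all 24 was in brainstem, knockout-labelled 3, which is also the shallowest library, with 1928 reads over the 19 genes.

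**Figure D1:**
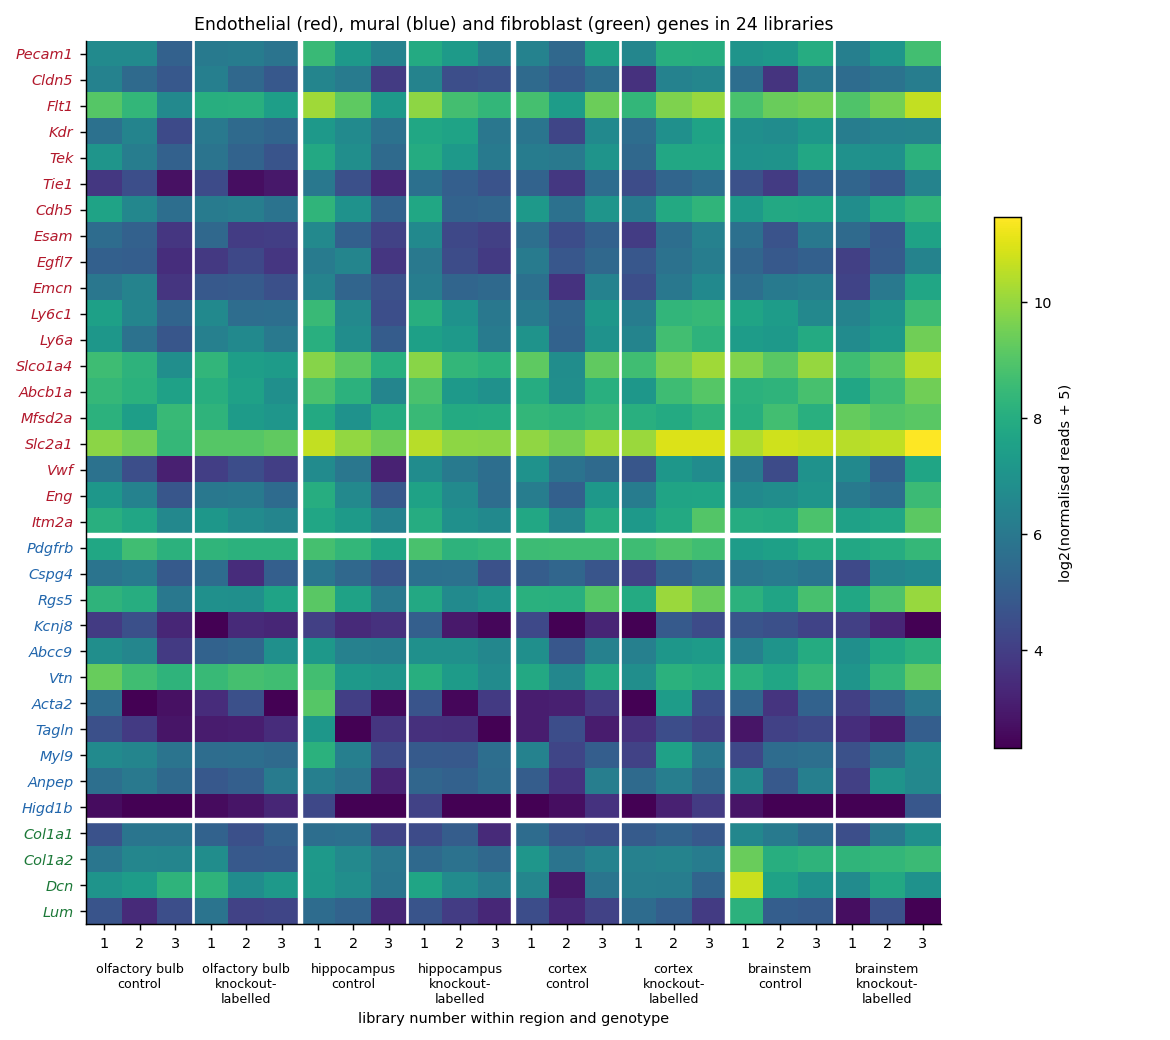
Level of each of the 34 genes (rows, names coloured by cell class) in each of the 24 libraries (columns, numbered within region and genotype), as log2 of normalised reads plus 5. Columns such as hippocampus control 3 and cortex control 2 are dark over nearly all endothelial rows, whereas Mfsd2a and Pdgfrb keep a similar colour throughout.

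The genes moved as a block from library to library. Flt1 was at 1130, 584 and 146.8 normalised reads in hippocampal controls 1, 2 and 3, Cdh5, the cadherin of endothelial junctions, at 311.7, 122.4 and 31.9, and Pecam1, an adhesion molecule of the same junctions, at 363.7, 144.6 and 78.6. The 3 genes had the same order, and hippocampal control 1 was the highest of its group for 17 of 19 endothelial genes and control 3 the lowest for 18. Hippocampus, knockout-labelled 1, was the highest of its group for 19 of 19. Cortical control 2 and cortex, knockout-labelled 1, were each the lowest of their group for 18 of 19, brainstem, knockout-labelled 3, the highest for 18 and olfactory bulb control 3 the lowest for 18. The median within-group standard deviation on the log2 scale was 0.92 for the endothelial genes, 0.90 for the 9 mural genes tested and 0.89 for the fibroblast genes, against 0.40 over the 12759 genes tested and 0.30 for the 12 astrocyte markers.

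Flt1 and Slco1a4 also varied widely within the other groups, though not always in the same order. Flt1 was at 527.9, 329.1 and 94.4 normalised reads in olfactory bulb controls and 262.4, 264.4 and 169.8 in knockout-labelled libraries, and at 952.9, 416.1 and 330.1 in knockout-labelled hippocampus. In cortex it was at 430.5, 161.3 and 680.8 against 323.7, 830.2 and 1067, and in brainstem at 455.5, 667.8 and 722.3 against 491.8, 756.1 and 1561. The genotypes overlapped in every region. Slco1a4 was at 390.1, 298.6 and 110.8 in olfactory bulb controls against 319.3, 170.3 and 157.4, and at 894.4, 561.7 and 267.4 in hippocampal controls against 918.8, 328.3 and 278.1. In cortex it was at 581.9, 105.8 and 592.6 against 398, 776.2 and 1135, and in brainstem at 848.2, 558.5 and 1022 against 386.5, 573.5 and 1424. Its highest and lowest libraries were those of Flt1 in both hippocampal groups. Of the remaining endothelial genes, Abcb1a, the drug efflux pump, had a mean of 288.2, and the receptor Tie1, at 25.1, and the secreted protein Egfl7, at 33.9, had the lowest means.

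To describe this, each gene's deviation from its group mean was set against the mean deviation of the endothelial genes other than Slc2a1 and Mfsd2a (leaving out the gene itself), over 24 libraries. These are descriptions without a test, and all genes of a library share its depth and size factor. Pearson's r was 0.78 (Vwf) to 0.96 (Flt1) for the 17 genes, which include the receptors Kdr, Tek, Tie1 and Eng, the junction genes Cdh5, Cldn5, Esam and Pecam1, the drug pump Abcb1a, and Egfl7, Emcn, Ly6c1, Ly6a, Slco1a4 and Itm2a. Their slopes lay between 0.76 and 1.21. Leaving out the 2 libraries farthest from the median changed r to between 0.69 and 0.95. The mean of 31 other endothelial genes followed with r = 0.97. A further mural list and a list of vascular ligands followed at r = 0.83 each, the ligands with a slope of 0.21, and a further fibroblast list at 0.46. The microglial list followed at r = 0.71, the neuronal and oligodendrocyte lists at 0.51 each, and the astrocyte list at -0.37. Oligodendrocyte precursor genes had r = 0.19, and ependymal and choroid plexus genes r = -0.17. The part of these other cells in the spread was not tested.

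Slc2a1 and Mfsd2a departed from the block. Slc2a1 had r = 0.90 with it but a slope of 0.47, so that its level changed less than that of the other endothelial genes: in hippocampal controls it was at 1579, 1016 and 717.5 normalised reads, a narrower range than that of Flt1 given above. It was at 1420, 957.2 and 944 in knockout-labelled hippocampus, 523.7, 531.5 and 603.2 in knockout-labelled olfactory bulb, where the sum of the 17 genes ran the other way (1620.0, 1237.4 and 905.4), and 1416, 1541 and 2825 in knockout-labelled brainstem. Slc2a1 is also made by astrocytes. Mfsd2a, the transporter that carries lipid-bound omega-3 fatty acids across the barrier and restrains vesicle traffic, did not follow at all (r = 0.02, slope 0.01). It was at 231.7, 121.4 and 242.1 in hippocampal controls 1, 2 and 3, so that the library with the lowest endothelial sum had the highest Mfsd2a. Its within-group standard deviation of 0.40 was close to the median of all genes. Mfsd2a therefore did not vary between libraries as the other endothelial genes did.

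**Figure D2:**
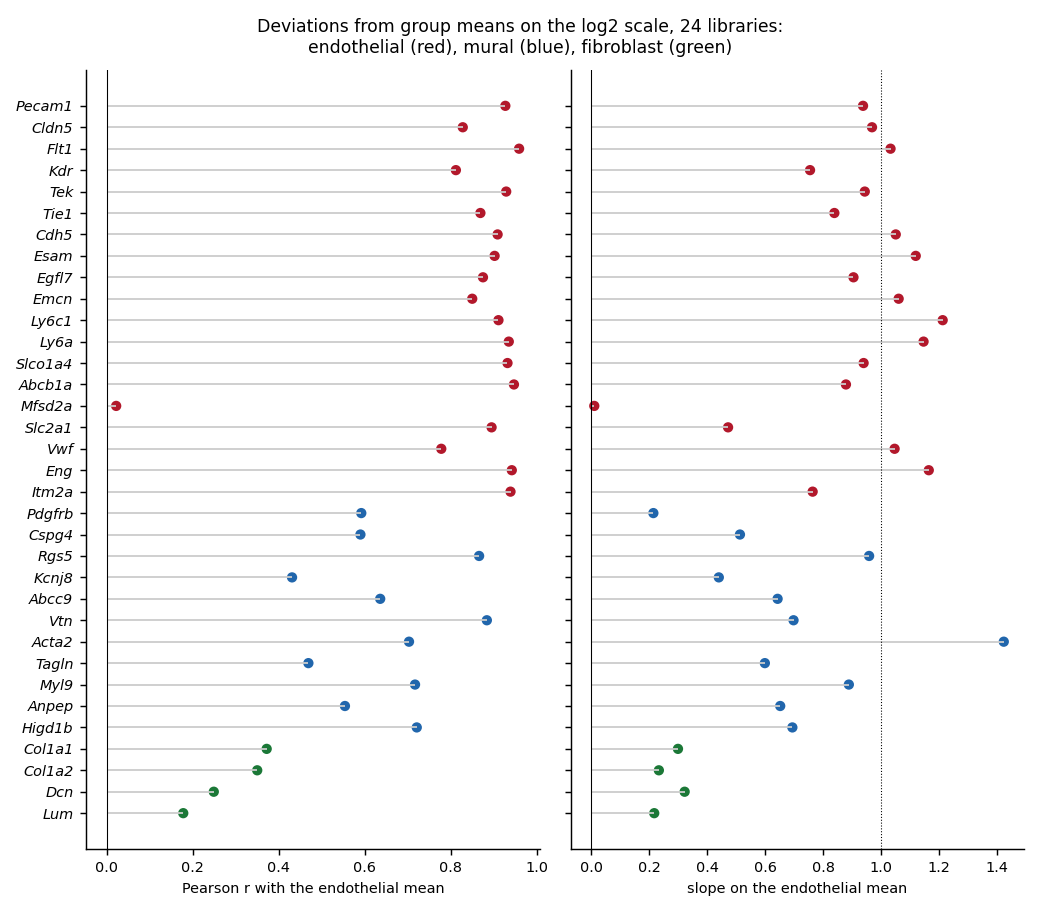
For each of the 34 genes, Pearson r (left) and slope (right) of its deviation from its group mean on the mean deviation of the endothelial genes other than Slc2a1 and Mfsd2a, over 24 libraries on the log2 scale (dotted line, slope 1). The red points of 17 endothelial genes lie at r of 0.78 to 0.96, Mfsd2a lies at 0.02, and the 4 green fibroblast genes lie at 0.18 to 0.37.

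The endothelial genes did not pass the test between genotypes in any region. By limma, 0 of 32 tested vessel genes were called at an adjusted p under 0.05 in olfactory bulb (0.0862% of all genes tested were called), 0 in hippocampus (2.36%), 0 in cortex (0.376%), 0 in brainstem (0.666%) and 0 for the average of regions (5.75%). Unadjusted p was under 0.05 for 0, 1, 1, 2 and 1 of the 32, against 5.09%, 13.4%, 6.11%, 14.8% and 18.8% of all genes, and edgeR and DESeq2 on recovered reads also called 0 in each. The F test of whether the genotype difference varied among regions called 0 of 32 (0.0705% of all genes), with 2 at an unadjusted p under 0.05 (7.29% of all genes), and the other tools called 0. These counts do not show that the genes were alike in both genotypes: the 95% interval of a log2 fold change extended 1.53 to either side for the median endothelial gene within a region and 0.77 for the average of regions.

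In cortex, 18 of 19 endothelial genes had a log2 fold change above 0, with a median of 0.64, where the median of all genes was -0.01. The exception was Mfsd2a. Slc2a1 had the smallest p of the vessel genes there. It was at 971.2, 774.8 and 1182 normalised reads in cortical controls and 1097, 2031 and 2033 in knockout-labelled libraries, a log2 fold change of 0.78 (SE 0.36, limma adjusted p = 0.785), and the groups overlapped. Kdr, the main signalling receptor for vascular endothelial growth factor, was at 54.1, 13.9 and 97.5 against 43.0, 115.8 and 192.4 (log2 fold change 1.11, SE 0.61, adjusted p = 0.878). Ly6a, a surface antigen of endothelial and stem cells, was at 125.5, 31.5 and 122.2 against 82.8, 407.4 and 294.1 (log2 fold change 1.39, SE 0.86, adjusted p = 0.932). For each, 1 or more knockout-labelled libraries lay within the control range. In olfactory bulb 2 of 19 were above 0 (median -0.34), in hippocampus 12 (median 0.12) and in brainstem 13 (median 0.12). Since these genes move together within a library, a like sign over many of them carries little more than the sign of their sum.

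**Figure D3:**
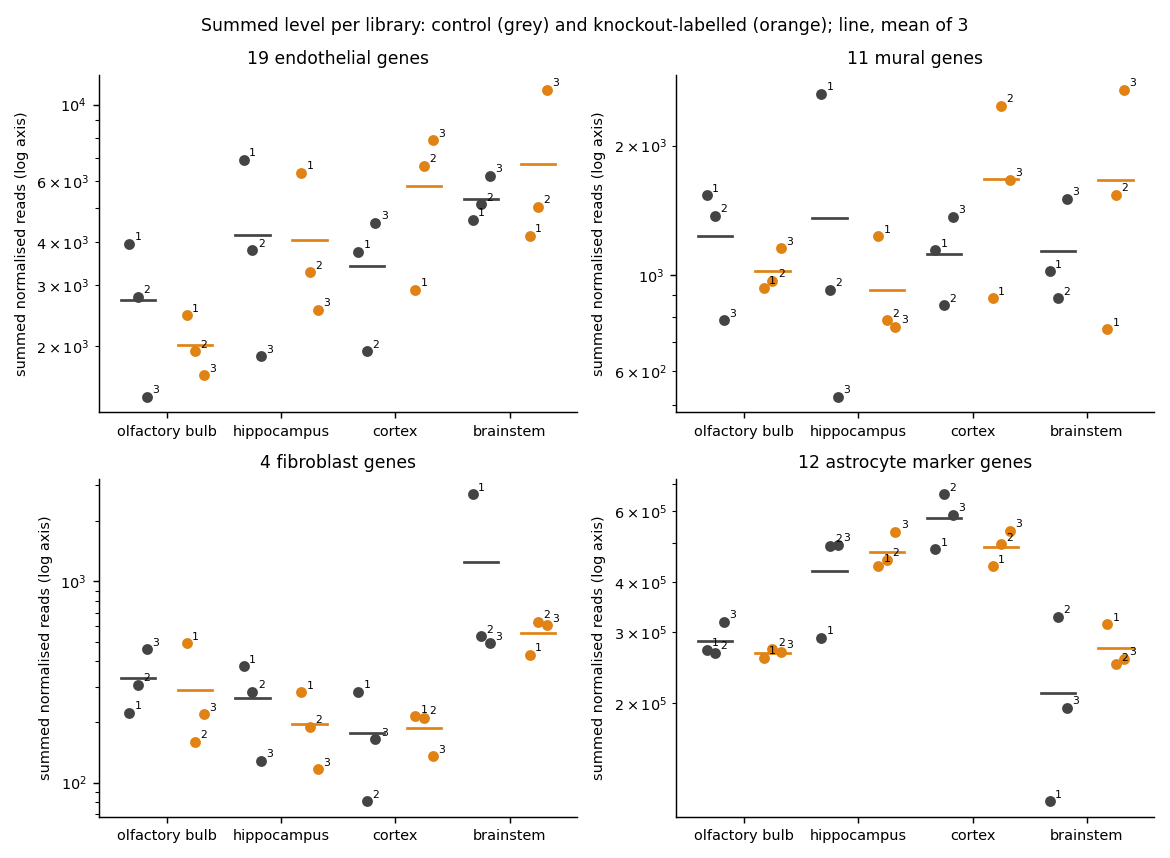
Summed normalised reads (log axis) of the 19 endothelial, 11 mural and 4 fibroblast genes and of 12 astrocyte markers in each library (points, numbered within the group), control in grey and knockout-labelled in orange, with the mean of 3 as a line. The vessel sums of the 2 genotypes overlap in every region, and brainstem control 1 has the highest fibroblast sum, 2714.9, and the lowest astrocyte sum, 113803.

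Mfsd2a, which did not move with the other endothelial genes (r = 0.02), had the smallest p of the endothelial list in brainstem. Which cells its reads came from was not tested. Its level was 261.8, 412.8 and 270 normalised reads in brainstem controls (314.9 ± 84.9, SD, n = 3) and 633.1, 504.6 and 554.7 in knockout-labelled libraries (564.1 ± 64.75, SD, n = 3). All 3 knockout-labelled libraries lay above all 3 controls. The log2 fold change was 0.86 (95% interval 0.27 to 1.45, limma adjusted p = 0.154), and without control 2 it was 1.06 with an adjusted p of 0.0357. In cortex the order was the opposite and small: 331, 301.1 and 341.9 in controls against 265, 237.5 and 300.4 (log2 fold change -0.28, SE 0.29, adjusted p = 0.990). In hippocampus it was at 231.7, 121.4 and 242.1 against 364.8, 233.9 and 240.8 (log2 fold change 0.52, adjusted p = 0.460), and in olfactory bulb at 292, 169 and 352.1 against 306.1, 156.4 and 134.9 (log2 fold change -0.46, adjusted p = 1). Both pairs of groups overlapped. For a difference among regions, the limma F test of Mfsd2a gave an adjusted p of 0.442 (unadjusted 0.00811), so that a difference between regions was not established. Kdr was the only other endothelial gene without overlap in brainstem, at 113.9, 105.2 and 139.3 in controls against 68.1, 78.5 and 80.1 (log2 fold change -0.62, SE 0.61, adjusted p = 0.684). In all, 4 of 34 vessel genes did not overlap in brainstem (11.8%) and 1 in each other region (2.94%), where 11.1% of all genes tested did not overlap in brainstem, 14.1% in olfactory bulb, 20.1% in hippocampus and 14.5% in cortex.

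**Figure D4:**
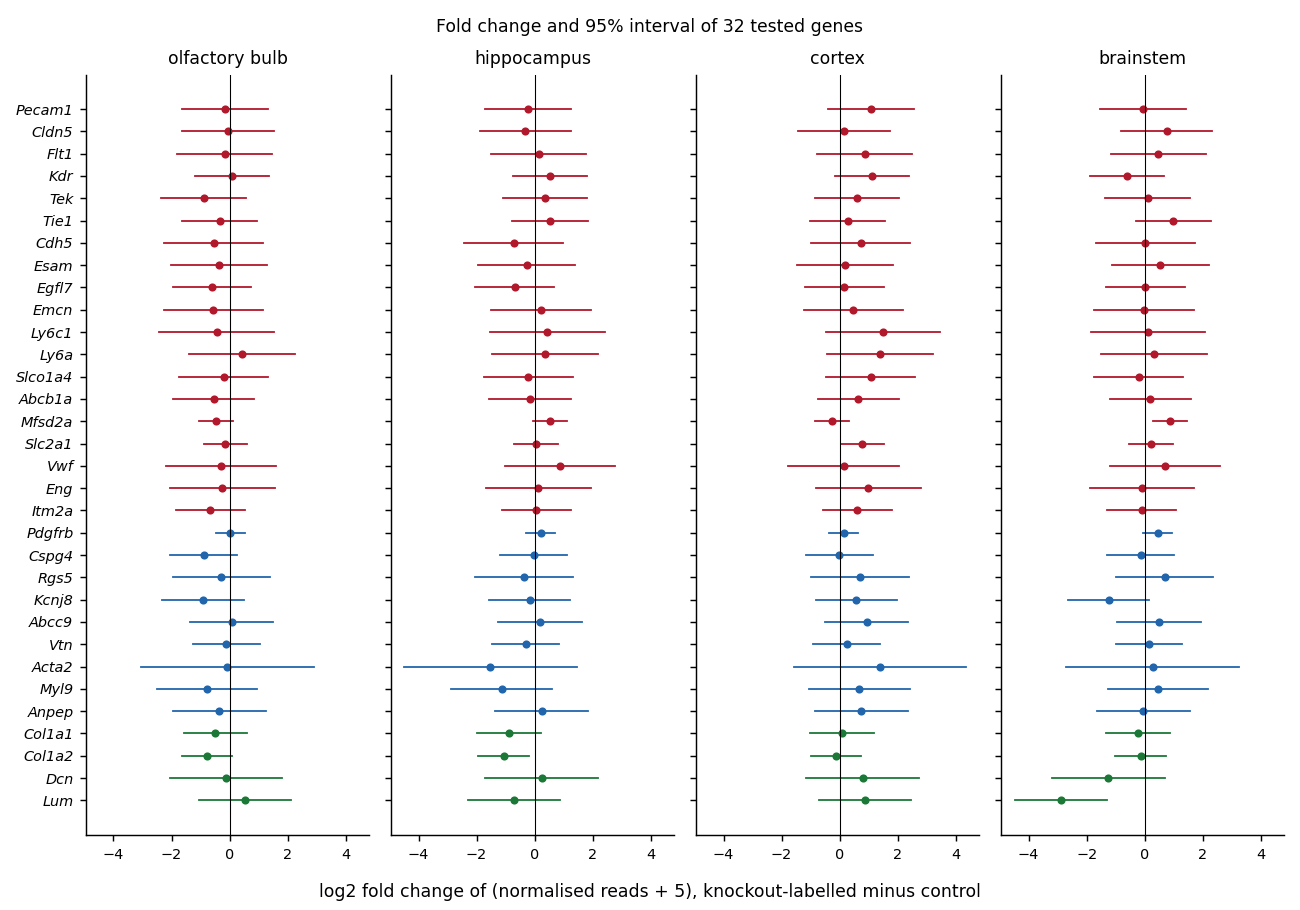
Log2 fold change of normalised reads plus 5, knockout-labelled minus control, with its 95% interval for the 32 tested genes in each region (red endothelial, blue mural, green fibroblast). The intervals of most endothelial genes are about 3 units wide, the narrowest belong to Pdgfrb, Mfsd2a and Slc2a1, and Lum in brainstem lies farthest from 0.

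Of the 11 mural genes, 8 mark mainly pericytes and 3 are contractile genes of smooth muscle. Rgs5, a regulator of G-protein signalling, had the highest mean at 334.9 normalised reads, Pdgfrb, the receptor through which endothelial platelet-derived growth factor recruits pericytes, 318.8, and Vtn, the matrix protein vitronectin, 283.3. Rgs5 and Vtn moved with the endothelial genes (r = 0.87 and 0.88 over 24 libraries). Rgs5 was at 550.3, 189.1 and 59.3 in hippocampal controls 1, 2 and 3, the order of the endothelial sum. Pdgfrb moved little: it was at 431, 330.9 and 201.0 in the same libraries, with a slope of 0.21 and a within-group standard deviation of 0.32, the smallest of the tested vessel genes. Abcc9 and Kcnj8, the subunits of the pericyte ATP-sensitive potassium channel, had r of 0.64 and 0.43. Kcnj8 had a mean of 9.62 and fewer than 10 reads in 16 libraries, and Higd1b, a pericyte gene of the mitochondrial HIG1 family, had 0 reads in 12, where 3 reads would have been 0.896 to 6.43 normalised reads. Cspg4, the NG2 proteoglycan, also marks oligodendrocyte precursors, whose list of 8 genes summed to 872.7 to 3211.4, and had r of 0.59. The aminopeptidase Anpep had r of 0.55.

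The genotypes overlapped for Rgs5, Vtn and Pdgfrb in every region. Rgs5 was at 306.4, 257.5 and 58.4 normalised reads in olfactory bulb controls against 116.9, 113.5 and 194.8, and at 225.5, 99.99 and 128.8 in knockout-labelled hippocampus. In cortex it was at 276.9, 269.6 and 530.7 against 238.8, 1079 and 659.8, and in brainstem at 287.4, 198.3 and 445.8 against 211.9, 474.2 and 1064. Its highest values in cortex and brainstem were thus in knockout-labelled libraries with a high endothelial sum. Brainstem, knockout-labelled 2, differed: Rgs5, at 474.2, was above every brainstem control, but the endothelial sum of 5049.3 lay within the control range. Vtn was at 635.9, 397.5 and 305.1 in olfactory bulb controls against 354.9, 426.3 and 404.6, and at 413.2, 151.1 and 129.8 in hippocampal controls against 261.7, 157.8 and 101.9. In cortex it was at 222.8, 88.2 and 227.4 against 110, 278 and 248.7, and in brainstem at 271.4, 208.4 and 338.6 against 132.3, 315.6 and 617.6. Olfactory bulb had the highest mean Vtn among controls. Pdgfrb was at 214.9, 397.5 and 288.8 in olfactory bulb controls against 313.2, 285.8 and 292.2, and at 452.9, 298.9 and 326.2 in knockout-labelled hippocampus. In cortex it was at 376.4, 391.8 and 391.4 against 390.7, 480.8 and 404.8.

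No pericyte gene was called between genotypes. Pdgfrb had the smallest p among mural genes in brainstem, at 160.7, 178.1 and 244.3 in controls and 217, 245.1 and 337.4 in knockout-labelled libraries (log2 fold change 0.44, 95% interval -0.05 to 0.94, limma adjusted p = 0.398). Each knockout-labelled library was above the control median, and the groups overlapped. Kcnj8 did not overlap in brainstem, at 21.3, 18.2 and 12.9 in controls against 11.6, 4.81 and 0, but the 0 stands for 0 reads in the shallowest library, which allows up to 17.2 normalised reads. Cspg4 in olfactory bulb was at 51.8, 61.2 and 25.1 against 41.7, 6.23 and 28.7 (log2 fold change -0.89, adjusted p = 1). For the 9 mural genes tested, the median log2 fold change was 0.68 in cortex, 0.27 in brainstem, -0.18 in hippocampus and -0.28 in olfactory bulb.

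The contractile genes of smooth muscle differed in level: Acta2 and Tagln had under 10 reads in 12 and 16 of the 24 libraries, and Myl9 had more in every library. Acta2 is smooth muscle actin, Tagln the actin-binding protein transgelin and Myl9 a myosin light chain, and all 3 are targets of serum response factor, which binds the CArG box. Acta2 was at 530 normalised reads in hippocampal control 1, from 835 reads, and at 11.1 and 0.742 in controls 2 and 3. Tagln was at 137.1, 0 and 8.16 and Myl9 at 278, 71.4 and 16.3 in the same libraries. The sum of the 3 genes was 945.1 in hippocampal control 1, 364.9 in cortex, knockout-labelled 2, and at most 183 in the other 22 libraries, with a median of 59.5 over all. Hippocampal control 1 was also the highest of its group for all 8 pericyte genes, and cortex, knockout-labelled 2, for 5 of 8. Acta2 had the largest within-group standard deviation of the vessel genes (1.79 on the log2 scale). Its log2 fold change was -1.53 in hippocampus (95% interval -4.50 to 1.45) and 1.39 in cortex (-1.59 to 4.36), where in each case the single high library lies in the group with the higher mean. Myl9 did not overlap in olfactory bulb, at 98.1, 84.5 and 52.4 in controls against 42.7, 44.3 and 40.0 (log2 fold change -0.77, adjusted p = 1).

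The promoters of Acta2 and Myl9 are shown because both were highest of their group in the 2 libraries with the largest contractile sums. Tagln was highest of its group there too, but at 17.4 normalised reads from 9 reads in cortex, knockout-labelled 2, it was no higher than in cortical control 2, at 17.6. RefSeq's table for GRCm38.p6 held promoters of 23 of the 34 genes (14 endothelial, 8 mural and 1 fibroblast, 26 promoters in all), each with 300 bases around the start of transcription. Tagln was not among the 23, so that its promoter could not be searched. The CArG box, in its strict form, was in 1 of the 26, that of Myl9, with its first base 161 bases before the start, and in 1.63% of 32851 promoters. A looser form, with 1 C or G among the middle bases, was in 8 of the 26 and in 8.5% of all promoters. By class it was in 5 of 17 endothelial, 2 of 8 mural and 1 of 1 fibroblast promoters, so that it was not particular to the contractile genes. Myl9 held 1 match of the looser form, with its first base 99 before the start. Acta2 held 2, with first bases 84 and 34 before the start, and no strict match. Matches are descriptions of letters, read on both strands. The 250 bases before the start follow 5′ to 3′ on the gene's strand, chr2:156775214-156775463 (plus) for Myl9 and chr19:34255374-34255623 (minus) for Acta2, with matches of either form in capitals.
Myl9: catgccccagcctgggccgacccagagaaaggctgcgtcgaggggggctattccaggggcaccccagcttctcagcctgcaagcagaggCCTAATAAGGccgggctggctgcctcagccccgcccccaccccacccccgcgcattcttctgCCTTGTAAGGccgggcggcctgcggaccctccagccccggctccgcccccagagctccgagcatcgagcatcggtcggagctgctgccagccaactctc
Acta2: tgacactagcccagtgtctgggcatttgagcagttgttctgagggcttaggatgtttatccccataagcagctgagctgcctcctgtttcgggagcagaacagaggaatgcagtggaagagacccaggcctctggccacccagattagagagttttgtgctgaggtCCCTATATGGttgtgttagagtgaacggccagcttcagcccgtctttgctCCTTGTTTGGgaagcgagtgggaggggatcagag

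Of the 4 fibroblast genes, Col1a2 was higher in brainstem than in the other regions, and Dcn and Lum were highest in a single brainstem library. Col1a2, a chain of type I collagen, was at 652.4, 259 and 304.3 normalised reads in brainstem controls (405.3 ± 215.2, SD, n = 3) and at 312, 326.8 and 371.7 in brainstem knockout-labelled libraries (336.8 ± 31.06, SD, n = 3). In the other 18 libraries it was at 24.2 to 148.5, so that all 6 brainstem libraries lay above all 18 others. No other tested vessel gene separated a region in this way, above or below, where 2.67% of all genes tested did so for brainstem. The controls of brainstem were 2.10 higher on the log2 scale than the mean of the other control regions (SE 0.34, 95% interval 1.40 to 2.81, limma adjusted p = 6.51e-05), and 1.70 higher with an adjusted p of 0.00284 without brainstem control 1. Col1a2 was the only vessel gene called in a comparison of control regions by limma (1 of 32 in brainstem, where 9.81% of all genes were called).

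Brainstem control 1 stood apart for the other fibroblast genes. Dcn, the collagen-binding proteoglycan decorin, was at 1688 normalised reads there and at 186.2 and 122.2 in the other brainstem controls, 101.4, 224.3 and 120.1 in the knockout-labelled brainstem libraries, and 2.52 to 303 in the other regions. Lum, the related proteoglycan lumican, was at 286.3, 28.3 and 25.7 in brainstem controls. Col1a1, the other chain of type I collagen, was at 88.3, 60.7 and 40.7, without such a gap. In the same library the 12 ependymal and choroid plexus genes summed to 244486, the highest of all 24, and the astrocyte markers to 113803, the lowest. In brainstem, Dcn was 1.995 higher than the other control regions on the log2 scale (SE 0.75, limma adjusted p = 0.0790) and Lum 1.77 higher (SE 0.63, adjusted p = 0.0522), and edgeR and DESeq2 called both beside Col1a2. The choroid plexus sum was 244486, 51600 and 119796 in brainstem controls 1, 2 and 3, the order of Col1a2, and both were highest of their group in cortical control 1 (65519 and 135.2). It was 72742 to 147088 in hippocampal controls, where Col1a2 was at 56.4 to 148.5, and 4208.6 in brainstem, knockout-labelled 3, where Col1a2 was at 371.7. Its part in the level of the fibroblast genes was not tested. The endothelial sum was 4634.9 in brainstem control 1, within the range of its region. The fibroblast genes had r of 0.18 (Lum) to 0.37 (Col1a1) with the endothelial deviations.

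**Figure D5:**
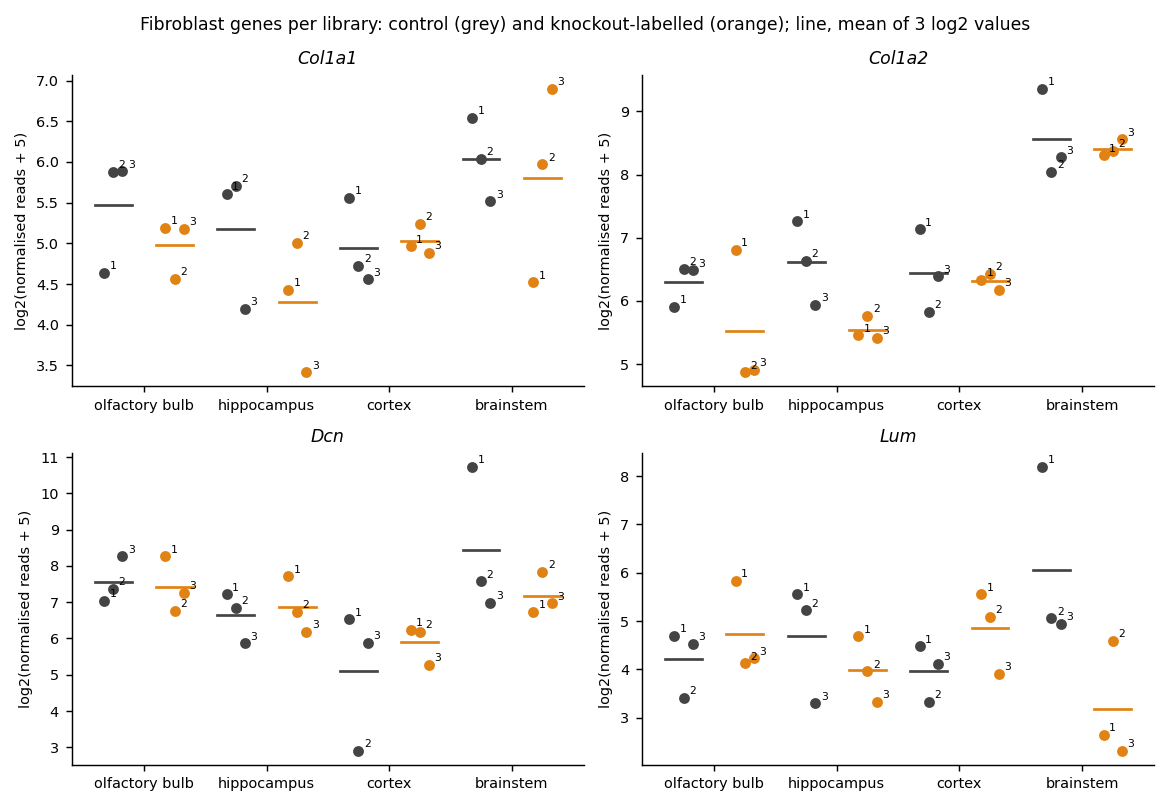
Log2 of normalised reads plus 5 of the 4 fibroblast genes in each library (points, numbered within the group), control in grey and knockout-labelled in orange, with the mean of the 3 log2 values as a line. For Col1a2 all 6 brainstem libraries lie above the other 18, and for Dcn and Lum brainstem control 1 lies above every other library.

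Between genotypes, fibroblast genes had the smallest p among the vessel genes in every region but cortex, with no call by limma, edgeR or DESeq2. Col1a2 in hippocampus was at 148.5, 94.6 and 56.4 normalised reads in controls and at 38.8, 49.4 and 37.6 in knockout-labelled libraries. All 3 knockout-labelled libraries were below all 3 controls, and the log2 fold change was -1.07 (95% interval -1.94 to -0.20, limma adjusted p = 0.228). Col1a1 had the same direction there, at 43.8, 47.3 and 13.4 against 16.5, 27.2 and 5.68, with overlap (log2 fold change -0.89, SE 0.53, adjusted p = 0.511). Beside both, the ependymal and choroid plexus genes summed to 72742 to 147088 in these controls and 2245.5 to 6186.8 in the knockout-labelled libraries, and their part in the difference was not tested. In olfactory bulb, where that sum was 90.0 to 186.2 in all 6 libraries, Col1a2 was at 55.1, 86.1 and 84.6 against 106.8, 24.2 and 25.0 (log2 fold change -0.78, adjusted p = 1). In cortex it was at 135.2, 51.7 and 78.9 against 75.4, 81.1 and 67.2 (log2 fold change -0.14), in brainstem its log2 fold change was -0.15, and for the average of regions -0.53 (95% interval -0.97 to -0.10, adjusted p = 0.152). Without olfactory bulb, knockout-labelled 1, the average was -0.69 with an adjusted p of 0.0235.

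Lum in brainstem had the lowest p of any vessel gene between genotypes within a region. It was at 286.3, 28.3 and 25.7 normalised reads in controls and at 1.28, 19.2 and 0 in knockout-labelled libraries, from 1, 12 and 0 reads. The groups did not overlap, but the 0 allows up to 17.2 normalised reads. The log2 fold change was -2.87 (SE 0.77, limma adjusted p = 0.0719), and without control 1 it was -1.81 with an adjusted p of 0.431. Without control 2 the adjusted p was 0.0163, and without knockout-labelled 2 it was 0.0275. DESeq2 gave Lum no adjusted p in this comparison. The limma F test among regions gave Lum an adjusted p of 0.450 (unadjusted 0.00870). Dcn in brainstem was at the values given above (log2 fold change -1.25, SE 0.92, limma adjusted p = 0.565). Apart from Col1a2 in hippocampus and Lum in brainstem, the fibroblast genes overlapped between genotypes in each region. Dcn was at 126.7, 160.1 and 303 normalised reads in olfactory bulb controls against 302, 103.8 and 148.6, and at 143.5, 109.4 and 53.4 in hippocampal controls against 204.6, 101.7 and 68.1. Col1a1 was at 19.8, 53.9 and 54.0 in olfactory bulb controls against 31.5, 18.7 and 31.2, at 42.2, 21.4 and 18.6 in cortical controls against 26.2, 32.8 and 24.5, and at 18.0, 57.7 and 114.4 in knockout-labelled brainstem. These collagen levels correspond to 5.77 per kilobase for Col1a1 and 11.8 for Col1a2 over the 24 libraries, against 32.7 for Dcn. All 4 fibroblast genes had a log2 fold change below 0 for the average of regions, with a median of -0.46 against -0.01 over all genes. The regions differed: 3 of 4 were above 0 in cortex (median 0.43), 1 in olfactory bulb (-0.31), 1 in hippocampus (-0.79) and 0 in brainstem (-0.74).

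Col1a2 is the only fibroblast gene with a promoter in the RefSeq table. It is shown because NFIA, the factor targeted in these mice, belongs to the nuclear factor I family, whose half-site is TTGGC, searched on both strands. It was in 12 of the 26 promoters of vessel genes (46.2%), and in 46.7% of all 32851 promoters. In Col1a2 it was present once, with its first base 222 bases before the start. The 250 bases before the RefSeq start of Col1a2 lie at chr6:4505368-4505617 (plus strand, GRCm38.p6), with the half-site in capitals.
Col1a2: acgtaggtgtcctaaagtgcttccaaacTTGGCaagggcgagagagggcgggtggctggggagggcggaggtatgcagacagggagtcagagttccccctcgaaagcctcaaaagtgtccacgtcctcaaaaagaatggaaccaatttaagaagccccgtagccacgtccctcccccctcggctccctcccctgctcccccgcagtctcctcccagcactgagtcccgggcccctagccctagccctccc

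Among control regions, the endothelial genes gave no call, but Slc2a1 came near. It was at 943.4, 723.5 and 333.5 normalised reads in olfactory bulb controls and 1312, 1803 and 1650 in brainstem controls, with hippocampus and cortex between 717.5 and 1579. The brainstem controls were 0.88 higher on the log2 scale than the mean of the other regions (SE 0.29, limma adjusted p = 0.0426) and the olfactory bulb controls 0.93 lower (log2 fold change -0.93, SE 0.29, adjusted p = 0.0388), both past the adjusted p but below the 2-fold change that a call also required. Without olfactory bulb control 3 the bulb value was -0.50 (adjusted p = 0.315). Pdgfrb was lower in brainstem controls (log2 fold change -0.75, SE 0.20, adjusted p = 0.00713), again by less than 2-fold. Its values, given above, were 160.7 to 244.3 there and 201.0 to 431 in the other controls. In the same comparison 17 of 19 endothelial genes were above 0, with a median of 0.74, and in olfactory bulb 2 of 19, with a median of -0.64.

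By limma 0 of 32 vessel genes were called in control olfactory bulb (8.58% of all genes called), 0 in hippocampus (1.73%) and 0 in cortex (3.49%). At an unadjusted p under 0.05 there were 3, 1 and 3, against 25.3%, 13.5% and 19.4% of all genes. On recovered reads edgeR called 0 in each, and DESeq2 called 1, 0 and 1. Those were Col1a2, lower in olfactory bulb, and Dcn, lower in cortex. Dcn was at 87.6, 2.52 and 54.2 in cortical controls and 70.2, 67.6 and 33.6 in knockout-labelled cortex. In controls this was a log2 fold change of -2.43 against the other regions (SE 0.75, limma adjusted p = 0.0623). Vtn in olfactory bulb was at 635.9, 397.5 and 305.1 (log2 fold change 1.02, SE 0.45, adjusted p = 0.154). In hippocampus Mfsd2a was the nearest to a call (log2 fold change -0.63, SE 0.23, adjusted p = 0.182).

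Other genes of the vessel wall and the signals that act on it, given as lists beside the members, were called in a few instances. Of 10 tested genes of another mural list, 1 was called in cortex (0.376% of all genes called) and 1 in brainstem (0.666%). In both cases it was Notch3, the receptor that maintains arterial smooth muscle and pericytes. Notch3 was at 80.0, 126 and 92.8 normalised reads in cortical controls against 231.5, 254.9 and 299.5 in knockout-labelled libraries (log2 fold change 1.37, SE 0.28, limma adjusted p = 0.0229). In brainstem it was at 143.7, 200.3 and 184.3 against 622.8, 314 and 634.7 (log2 fold change 1.49, SE 0.28, adjusted p = 0.0105). It did not overlap between genotypes in either region. In olfactory bulb it did not overlap either, at 156.5, 139.2 and 107 in controls against 271.5, 348.8 and 382.1, but limma did not call it. In hippocampus it was at 100.9, 44.5 and 48.6 against 132.6, 93.9 and 139.5, with overlap and no limma call. Of this list edgeR called 0 in olfactory bulb and 0 in hippocampus, and DESeq2 called 1 and 2.

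Of 17 vascular ligands, Apln, whose product apelin acts on endothelial cells, was the 1 called in each of olfactory bulb (0.0862% of all genes called), hippocampus (2.36%) and cortex (0.376%). It was at 444.1, 565.7 and 593.4 normalised reads in olfactory bulb controls against 88.5, 74.1 and 156.1 (log2 fold change -2.34, SE 0.30, limma adjusted p = 0.000290), and fell by 1.52 in hippocampus and by 1.32 in cortex on the log2 scale. The cortical call (limma adjusted p = 0.0461) was lost by edgeR (adjusted p = 0.0638). For the average of regions 3 of 17 were called (5.75% of all genes called), Apln lower and Wnt7a and Vegfa higher. Wnt7a, the Wnt ligand that maintains the barrier, had a log2 fold change of 0.59 (limma adjusted p = 0.00368). Vegfa, the vascular endothelial growth factor that binds Flt1 and Kdr, had a log2 fold change of 0.34 (limma adjusted p = 0.0461). Of 28 tested other endothelial genes 1 was called in hippocampus, Bsg, the surface glycoprotein basigin, lower by 0.76 (log2 fold change -0.76, SE 0.21, adjusted p = 0.0431). It is abundant beyond endothelium, at 913.8 to 2788 normalised reads in controls. For the average of regions Notch3 was higher (log2 fold change 1.27, adjusted p = 1.48e-06) and Bsg, Igf2 and Fbln1 lower (log2 fold change -0.35, -1.44 and -0.77). Of 16 other fibroblast genes 2 fell in hippocampus, Igf2, a growth factor of meninges and choroid plexus (log2 fold change -3.09, SE 0.63, adjusted p = 0.0154), and Fbln1, a matrix protein (log2 fold change -2.08, SE 0.43, adjusted p = 0.00806), beside the choroid plexus sums given above.

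Between control regions, the share of the other endothelial list that was called lay near that of all genes, at 3 of 28 in brainstem (9.81% of all genes called) and 2 of 28 in olfactory bulb (8.58%). Higher in brainstem were the junction gene Ocln (log2 fold change 1.94, limma adjusted p = 0.00716), the endothelial transcription factor gene Erg (1.29, adjusted p = 0.0278) and the amino acid transporter gene Slc38a5 (1.83, adjusted p = 0.0340). Ocln and Erg in brainstem controls, from 99.2 and 64.3 normalised reads, overlapped hippocampal control 1, at 156.1 and 88.9. Ocln was at 263.9, 99.2 and 115.7 in brainstem controls 1, 2 and 3, the order of the choroid plexus sum. In hippocampus it was at 76.0 to 156.1 in controls and 16.1 to 33.3 in knockout-labelled libraries, where that sum was also lower. It was at 177.3 in brainstem, knockout-labelled 3, where the sum was 4208.6. The part of choroid plexus in the level of Ocln was not tested. The brainstem call of Erg was lost by edgeR (adjusted p = 0.0534) and DESeq2 (adjusted p = 0.0506). Lower in olfactory bulb were Erg (log2 fold change -1.67, adjusted p = 0.00502) and Ocln (log2 fold change -1.65, adjusted p = 0.0265). Of 16 other fibroblast genes, 2 were higher in brainstem, Igf2 and Col3a1, a collagen of vessel walls (log2 fold change 1.96, SE 0.50, adjusted p = 0.00568). Igf2 was at 6171, 1182 and 2733 normalised reads in brainstem controls 1, 2 and 3, the order of the choroid plexus sum. In knockout-labelled hippocampus the orders differed (359.8, 277.8 and 217.5 beside sums of 3138.2, 6186.8 and 2245.5). The part of choroid plexus in the level of Igf2 was not tested. Col3a1 was at 87.3, 24.3 and 17.2 normalised reads in brainstem controls and 0 to 22.5 in the other controls, with the highest value again in brainstem control 1. Of 10 other mural genes Sncg was higher in brainstem (log2 fold change 1.61), Art3 higher in olfactory bulb (1.30) and Notch3 lower in hippocampus (-1.06). Neither Sncg (adjusted p = 0.126 and 0.148) nor Art3 (adjusted p = 0.0708 and 0.0581) was called by edgeR or DESeq2. In olfactory bulb the fibroblast-list genes Islr (log2 fold change 4.47, adjusted p = 3.16e-10) and Col6a1 (2.16) were higher and Igf2 lower (-2.77), while Islr was lower in hippocampus (-1.79) and in cortex (-1.79), and Col6a1 lower in cortex (-1.51), the last not called by edgeR (adjusted p = 0.185) or DESeq2 (adjusted p = 0.108). Of the 17 ligands, Wnt7a was higher in olfactory bulb (1.65) and lower in hippocampus (-1.18), Pdgfa lower in olfactory bulb (-1.20), Angpt1 (-1.47) and Pdgfd (-1.51) lower in cortex, and Tgfb3 higher in brainstem (1.26). The call of Pdgfd was lost by edgeR (adjusted p = 0.0713).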

How the data were processed

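RNA-seq was made from sorted astrocytes, with RNA from the RNeasy Micro kit and libraries from 5 ng with the NuGEN Trio system, per the labels' protocols. FastQC, STAR 2.5.0a, DESeq2 1.20.0 and mm10 are named, per the submitters' processing notes. The counting tool, annotation and filters are not given in the sources used here. For every library the authors deposited a table of gene signal, that is reads scaled by a size factor. Dividing out that factor gave whole reads (tolerance 0.01 read, 100% of values), which were used as recovered counts. The cortical factors had another scale, so all 24 libraries were rescaled with joint median-of-ratios factors.

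The 12759 genes that reached 20 in 3 or more libraries were fitted in limma 3.58.1 (R 4.3.3) as log2(value + 5), with 8 group means, trend and robust moderation and 16 residual degrees of freedom. The constant shrinks fold changes of low genes. Tests were two-sided with Benjamini-Hochberg adjustment within a contrast and a threshold of 0.05. Control regions, each against the mean of the other 3, had to exceed 1 in absolute log2 fold change too. Alternatives were edgeR 4.0.16 with TMM factors, DESeq2 1.42.0, the deposited scale, another constant, no filter, blocks, fits to single regions and fits without each library. The script was tested on simulated data. The planned rule named the 3 genes of each class with the highest mean, up to 8 passing genes per contrast or else the 3 with the smallest p, and up to 3 passing genes of each other list. Other members are named to account for all 34. The members and lists were chosen with earlier results of these data known, and the search for the NFI half-site and the looser CArG form was added after the data were seen. Exon lengths and positions are from GENCODE vM21, promoters from RefSeq. Floors of 3 reads cover counting error only.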

Additional observations from a re-analysis of the deposited data

How the results depend on the processing

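Of 534 recalculated values for single vessel genes, 520 kept their side of the threshold, 14 passed it only under the alternative, and 0 were lost. The genes were those called in a contrast or, where none was called, the 3 with the smallest p. Only Col1a2 in brainstem controls started from a call, so that only its values could be lost. Of the fold changes 0 reversed direction, and the F test has no direction. Between genotypes the counts of called vessel genes stayed at 0 in olfactory bulb, hippocampus and cortex and for the difference among regions, under every alternative run. In brainstem the count was 1 with the replicate block and 0 to 2 with a library left out (Lum, and Mfsd2a without control 2), and for the average 0 to 1. Among control regions, the count for olfactory bulb was 1 by DESeq2 and 0 to 2 with a library left out. Without olfactory bulb control 1, Slc2a1 passed, and without hippocampal control 3, Slc2a1 and Col1a2. For cortex it was 1 by DESeq2, 1 with the replicate block and 0 to 1 with a library left out, in each case Dcn (without cortical control 1, brainstem control 2 or brainstem control 3). For brainstem it was 3 by edgeR and 3 by DESeq2, 2 with the replicate block, 2 with a block within genotype and 1 to 3 with a library left out, with Col1a2 called throughout. The cause of these shifts was not tested. Replicate numbers were not taken to pair libraries: deviations of same-numbered libraries had r above 0.1 in 5 of 12 pairs of genotypes within a region, in 8 of 18 pairs of control regions (up to 0.321) and in 2 of 18 pairs of knockout-labelled regions. The deposited scale was not run for control regions, since the cortical tables have another scale. The counts of all genes called, behind the percentages, also moved. In brainstem they were 85 by limma, 32 by edgeR, 167 by DESeq2, 128 with the replicate block, 0 with the region alone and 17 (without control 1) to 871 (without control 2) with a library left out. In olfactory bulb 11 became 60 by DESeq2, 76 alone, 17 unfiltered and 3 to 9 with a library left out. In hippocampus 301 became 638 by DESeq2 and 84 to 239, in cortex 48 became 92 by DESeq2, 133 alone, 30 unfiltered and 18 to 26, and for the average 734 became 534 to 1280. Genes differing among regions went from 9 to 15 by edgeR, 85 by DESeq2, 0 unfiltered, 19 with the replicate block and 0 to 90. Among controls, hippocampal calls went from 221 to 365 by DESeq2 and cortical calls from 445 to between 253 and 563. Depth limits Lum, Kcnj8, Acta2, Tagln and Higd1b, which had under 10 reads in 5, 16, 12, 16 and 21 libraries. It also limits the endothelial genes Tie1, with under 10 reads in 6 libraries, and Egfl7 and Vwf, in 3 each.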
